A study of Mus musculus with 36 samples.

Results

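*Sdcbp2*, *Nipal2*, *Tmem45b*, *Nat8* and *Foxr2* are 5 genes whose levels were followed over 36 arrays of mouse liver and liver tumours. They were read by every probe that carries one of these symbols, which gave 7 of the 25697 probes on the array. The genes were chosen by their higher signal in tumours than in liver in these same arrays, so every tumour against liver difference below is a description of how they were selected and carries no test. *Sdcbp2* has 3 probes and the other genes have 1 each, and all 7 passed the filter on dim probes, which asked for detection on at least 3 arrays. *Nat8* was detected on 35 arrays, *Nipal2* on 30, *Sdcbp2* and *Tmem45b* on 28 each, and *Foxr2* on 5.

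Total RNA from liver of strain FVB/n was hybridised to single-colour bead arrays, 1 array per sample, and the samples form 10 groups of 3 or 4. The control livers were 3 given PBS only (PBS_only) and 3 given DDC only (DDC_only). Tumours of the AKT-CAT model were sampled without a further agent (Tu_AKTCAT, 4 samples), after DDC (group Tu_AKTCAT_DDC, 4) and after CCl4 (group Tu_AKTCAT_CCl4, 4). Liver outside the tumours of the same model was sampled without a further agent (NonTu_AKTCAT, 3), after DDC (group NonTu_AKTCAT_DDC, 3) and after CCl4 (group NonTu_AKTCAT_CCl4, 4). It is called non-tumoral liver below. Tumours of the AKT-NRAS model were sampled without a further agent (Tu_AKTNRAS, 4) and with DDC (Tu_AKTNRAS_DDC, 4), and no non-tumoral AKT-NRAS liver was analysed here. CAT is taken to mean beta-catenin. The labels do not expand it, and they give neither ages nor the way the drivers were brought into the liver. DDC is known to injure bile ducts, and CCl4 to injure hepatocytes around the central vein. The labels do not say that the samples of a group came from separate animals, so p-values measure only the spread between samples.

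AKT, beta-catenin and RAS signalling are known drivers of liver cancer, and injury by DDC or CCl4 adds inflammation and regeneration to the tissue in which such tumours grow. *Sdcbp2* encodes syntenin-2, a protein with tandem PDZ domains that binds phosphoinositides and is related to syntenin-1, the syndecan-binding adaptor of exosome formation. *Nipal2* belongs to the NIPA family, whose best-studied members transport magnesium. *Tmem45b* encodes a membrane protein whose cellular role is little defined. *Nat8* encodes an N-acetyltransferase of the endoplasmic reticulum that completes mercapturic acids, the excreted form of glutathione conjugates. *Foxr2* encodes a forkhead transcription factor on the X chromosome that is silent in most adult tissues and is known in human tumours as an oncogene that acts with MYC.

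RefSeq promoter windows (build GRCm38.p6) were matched for 3 of the 5 genes, in 4 windows of 300 bases that run from 250 bases before a start to 50 after it. They are shown for reference, since these are the members with a window in the table used here. The last 100 bases before the start are printed 5′ to 3′ on the strand of the gene, in lower case, with matches to the motifs searched in capitals. The windows are chr2:151572523-151572622 on the plus strand for *Sdcbp2*, chr6:85836858-85836957 on the minus strand for the outer start of *Nat8*, and chrX:153118688-153118787 on the plus strand for *Foxr2*.
Sdcbp2: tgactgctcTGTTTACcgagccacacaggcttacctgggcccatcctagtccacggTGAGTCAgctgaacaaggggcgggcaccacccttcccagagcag
Nat8: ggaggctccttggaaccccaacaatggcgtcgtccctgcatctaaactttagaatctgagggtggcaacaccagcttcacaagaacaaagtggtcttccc
Foxr2: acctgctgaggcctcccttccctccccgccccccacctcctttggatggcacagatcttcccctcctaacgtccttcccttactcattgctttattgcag

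The motifs searched on both strands of the whole windows were CTTTGAT (TCF/LEF, the nuclear partners of beta-catenin), GTAAACA (FOXO, transcription factors restrained by AKT), TGANTCA (AP-1), TGACNNNGC (antioxidant response element) and CACGTG (E-box, bound by MYC and MAX). TGANTCA can overlap TGACNNNGC. The *Sdcbp2* window held 1 FOXO match on the minus strand, 91 to 85 bases before the start, and 1 AP-1 match, 44 to 38 bases before it. FOXO matches were present in 3.65% and AP-1 matches in 7.81% of all 32851 windows of this length. The shares of windows with a match were 3.73% for TCF/LEF, 12.4% for the antioxidant response element and 7.15% for the E-box. No match to any of the 5 motifs lay in the *Foxr2* window or in either *Nat8* window, which says only that these letters are not there.

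Levels are normalized log2 intensities, with an offset that compresses low values, so that a fold change of a dim gene is understated. A probe was called detected on an array at a detection p under 0.05, and undetected values of the probes used lay between 4.29 and 5.34. A level of one gene is not comparable with a level of another, because probes differ in brightness. In tissue RNA, fewer cells of a type and less RNA per cell cannot be told apart.

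**Figure D1:**
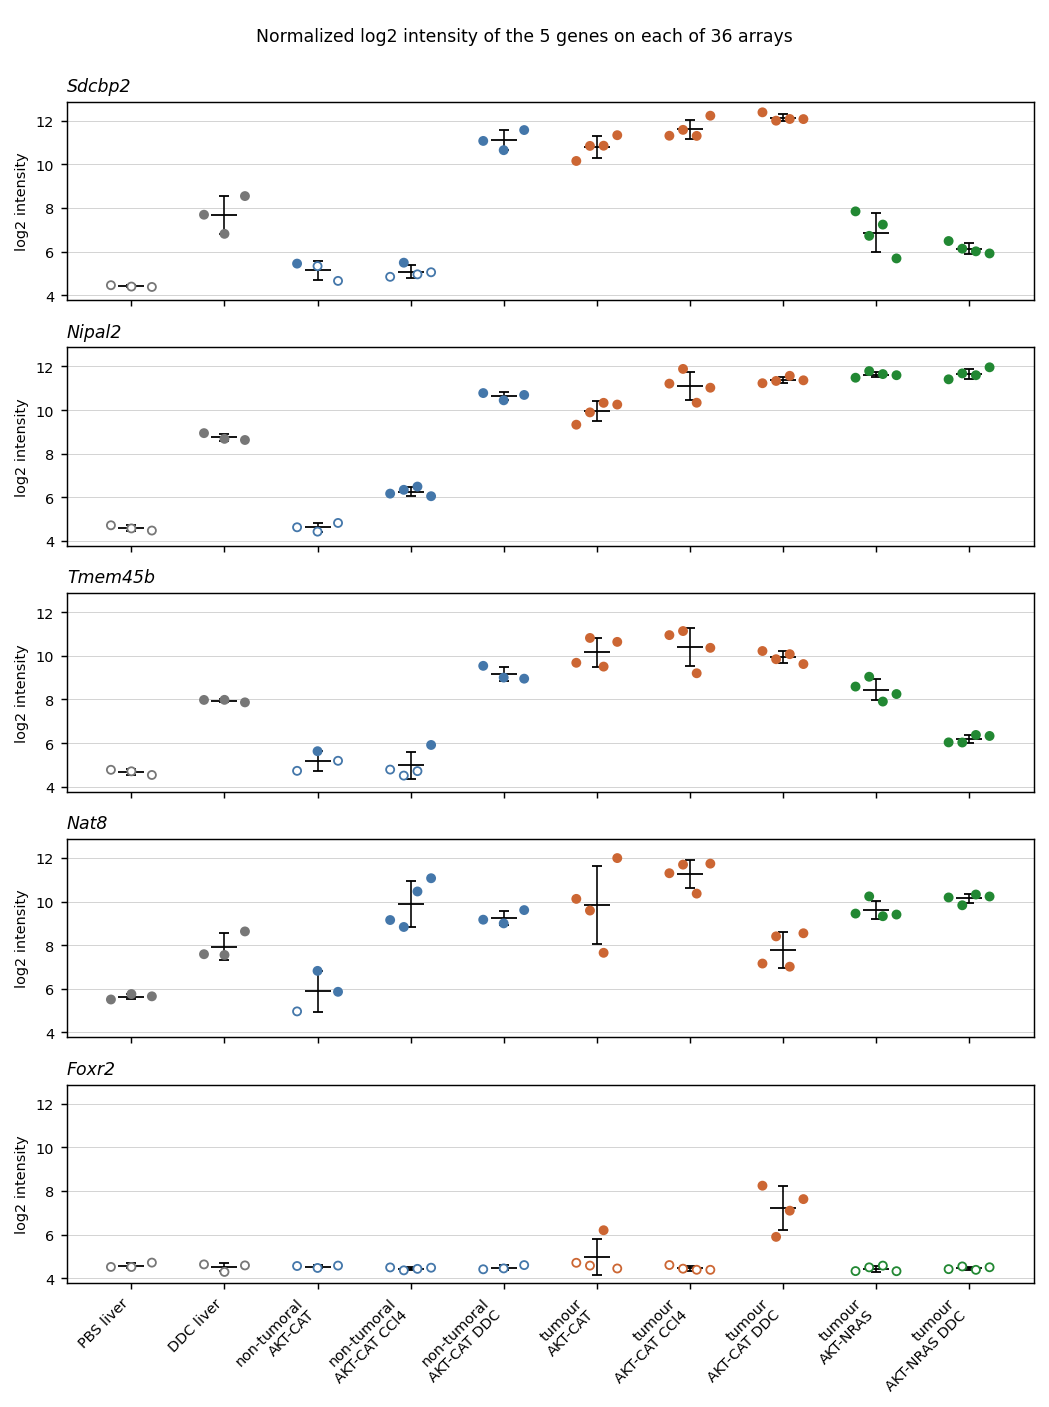
Normalized log2 intensity (y axis) of each gene on each of the 36 arrays, by group (x axis). Filled points are detected (detection p under 0.05) and open points are not; the bar and whiskers are the group mean and SD (n = 3 or 4). *Foxr2* is detected on 5 arrays, and PBS liver is at the bottom for the other 4 genes or shares it with other groups.

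By its brightest probe, *Sdcbp2* was high in every AKT-CAT tumour group and in non-tumoral AKT-CAT liver under DDC. The arrays read 12.39, 12.004, 12.08 and 12.08 in AKT-CAT tumours under DDC, 11.31, 11.58, 11.31 and 12.23 under CCl4, and 10.16, 10.85, 10.86 and 11.34 without an agent. Non-tumoral AKT-CAT liver under DDC read 11.08, 10.65 and 11.58. These 4 groups formed a chain in which neighbours overlapped, and no array of any other group reached them. DDC-only liver read 7.70, 6.82 and 8.55, AKT-NRAS tumours 7.85, 6.73, 7.24 and 5.69, and AKT-NRAS tumours under DDC 6.49, 6.14, 6.02 and 5.92. This middle tier overlapped from group to group. Non-tumoral AKT-CAT liver read 5.46, 5.34 and 4.67 without an agent and 4.85, 5.50, 4.97 and 5.06 with CCl4, with 1 array detected in each group. PBS liver read 4.47, 4.40 and 4.39, with none detected. The order of group means ran from 12.14 ± 0.17 (SD, n = 4) in AKT-CAT tumours under DDC down to 4.42 ± 0.04 (SD, n = 3) in PBS liver.

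*Nipal2* had a different order, with AKT-NRAS tumours at the top. Its arrays read 11.48, 11.79, 11.65 and 11.60 in AKT-NRAS tumours and 11.41, 11.68, 11.60 and 11.96 in the same tumours under DDC. AKT-CAT tumours read 11.23, 11.34, 11.57 and 11.37 under DDC, 11.21, 11.89, 10.34 and 11.03 under CCl4, and 9.33, 9.90, 10.33 and 10.25 without an agent. Non-tumoral AKT-CAT liver under DDC read 10.78, 10.45 and 10.70, all above the untreated tumours of its own model. DDC-only liver, at 8.95, 8.68 and 8.63, lay below all tumours and above the remaining groups. Non-tumoral liver with CCl4 read 6.18, 6.35, 6.50 and 6.06, all detected. Untreated non-tumoral liver (4.63, 4.43 and 4.83) and PBS liver (4.72, 4.58 and 4.48) were undetected on all 6 arrays.

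*Tmem45b* was highest in AKT-CAT tumours, whatever the agent. Arrays read 10.95, 11.13, 9.20 and 10.37 with CCl4, 9.68, 10.82, 9.51 and 10.64 without an agent, and 10.22, 9.85, 10.08 and 9.62 with DDC. Non-tumoral liver under DDC read 9.54, 9.003 and 8.95, AKT-NRAS tumours 8.59, 9.04, 7.90 and 8.25, and DDC-only liver 7.98, 7.98 and 7.87. The 3 tumour groups of AKT-CAT overlapped each other. Non-tumoral liver under DDC reached into their range with 1 array, at 9.54, and overlapped the AKT-NRAS tumours, which overlapped DDC-only liver. AKT-NRAS tumours under DDC stood apart at 6.03, 6.03, 6.37 and 6.33. Untreated non-tumoral liver read 4.73, 5.63 and 5.19, non-tumoral liver with CCl4 read 4.79, 4.51, 4.72 and 5.92, and PBS liver read 4.78, 4.71 and 4.54. Of these 10 arrays, 1 with CCl4 and 1 without an agent were detected.

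*Nat8* was the most variable of the 5 within groups and the only one detected in PBS liver. Untreated AKT-CAT tumours spanned 10.12, 9.59, 7.65 and 11.99, a group SD of 1.79 (n = 4). AKT-CAT tumours with CCl4 read 11.30, 11.69, 10.36 and 11.74, and those with DDC read 7.16, 8.40, 7.01 and 8.55. CCl4 and DDC tumours did not overlap. Non-tumoral AKT-CAT liver read 4.97, 6.82 and 5.86 without an agent, 9.15, 8.83, 10.46 and 11.07 with CCl4, and 9.17, 8.998 and 9.61 with DDC. AKT-NRAS tumours read 9.45, 10.23, 9.33 and 9.40, and 10.19, 9.83, 10.32 and 10.23 under DDC. DDC-only liver read 7.59, 7.55 and 8.63, and PBS liver 5.51, 5.76 and 5.66. *Nat8* was thus higher in injured non-tumoral liver than in AKT-CAT tumours under DDC on every array, which none of the other members showed.

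*Foxr2* was detected in AKT-CAT tumours only. All 4 arrays of the DDC group were detected, at 8.24, 5.89, 7.09 and 7.62. Of the untreated tumours, 1 array was detected at 6.20 and the others, at 4.70, 4.58 and 4.44, were not. The remaining 8 groups had no detected array, and their means ran from 4.43 to 4.58.

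The members were selected on the following differences, which are given with the standard error (SE) of the fit. Untreated AKT-CAT tumours exceeded non-tumoral liver by 5.65 ± 0.36 (log2 ± SE) for *Sdcbp2*, 4.98 ± 0.36 for *Tmem45b* and 3.95 ± 0.61 for *Nat8*. *Nipal2* was at least 23.1-fold higher, a bound because non-tumoral liver had no detected array, and *Foxr2* differed by 0.45 ± 0.32. With CCl4 in both tissues the tumour excess was 6.52 ± 0.34 for *Sdcbp2*, 5.43 ± 0.33 for *Tmem45b*, 4.85 ± 0.22 for *Nipal2* and 1.39 ± 0.56 for *Nat8*. *Sdcbp2* and *Tmem45b* were each detected on only 1 array of non-tumoral liver without an agent and 1 with CCl4. With DDC in both, the differences were 1.04 ± 0.36 for *Sdcbp2*, 0.78 ± 0.36 for *Tmem45b*, 0.73 ± 0.23 for *Nipal2* and -1.48 ± 0.61 for *Nat8*. The other *Sdcbp2* probes, both dimmer, gave 1.95 ± 0.31 and 2.69 ± 0.36 there. Under DDC *Foxr2* was at least 4.13-fold higher in tumours. Non-tumoral liver under DDC had group means of 11.10 ± 0.46 for *Sdcbp2*, 9.17 ± 0.33 for *Tmem45b* and 10.64 ± 0.17 for *Nipal2* (SD, n = 3), against 12.14 ± 0.17, 9.94 ± 0.26 and 11.38 ± 0.14 in tumours under DDC (SD, n = 4). Arrays whose detection p-values share a header prefix are taken to lie on 1 slide, here and below. On the slide that held 1 untreated tumour and the 3 untreated non-tumoral livers, the *Nat8* difference was 6.11 and the *Sdcbp2* difference 6.19.

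AKT-NRAS tumours were set against PBS liver, since they have no non-tumoral group here. *Nipal2* was at least 73.5-fold higher, *Tmem45b* at least 8.08-fold and *Sdcbp2* at least 2.73-fold, and *Nat8* differed by 3.96 ± 0.61. Against DDC-only liver, the DDC-treated AKT-NRAS tumours differed by 2.91 ± 0.23 for *Nipal2* and 2.22 ± 0.61 for *Nat8*. In the same comparison *Sdcbp2* differed by -1.55 ± 0.36 and *Tmem45b* by -1.75 ± 0.36. By the probes used, *Sdcbp2* and *Tmem45b* were thus higher in AKT-NRAS tumours than in PBS liver, but lower than in DDC-treated liver when the tumours had DDC too. Each of these pairs of groups lay on different slides, so that slide and group cannot be told apart.

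The remaining comparisons concern the injuring agents and the drivers, and were tested with limma over 10765 genes with Benjamini-Hochberg adjustment at 0.05. All of them share arrays with the tumour against liver comparisons above, so none is independent of how the genes were chosen. *Foxr2* passed the filter on dim probes through the AKT-CAT tumours under DDC, which hold 4 of its 5 detected arrays, so that any test involving that group was favoured by the filter. Its differences are therefore given without a test. It is left out of the counts of called genes, except where the closing section states that it is counted. The share of genes called over the whole array is given beside each count.

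DDC alone, in liver with no tumour driver named in the labels, raised all 4 genes other than *Foxr2* against PBS liver, where 22.7% of all genes were called. *Nipal2* rose at least 10-fold (adjusted p = 3.78e-13), *Tmem45b* at least 5.70-fold (adjusted p = 1.65e-07) and *Sdcbp2* at least 4.78-fold (adjusted p = 1.89e-07). *Nat8* rose by 2.28 ± 0.65 on the log2 scale (adjusted p = 0.0107), and without DDC-only replicate 3 its rise was 1.93 with an adjusted p of 0.0668. *Foxr2* was undetected in both groups. For each of the 4 genes the 3 DDC arrays lay above the 3 PBS arrays, all on 1 slide. The 2 tested proliferation markers (*Top2a*, *Cdk1*) had a summed level (log2) of 7.61 to 8.42 under DDC and 5.80 to 6.40 in PBS liver, where both were undetected. Of the 4 tested biliary markers, 3 were undetected in PBS liver (*Cftr*, *Krt19*, *Sox9*) and 1 under DDC (*Krt19*), with summed levels of 6.56 to 7.26 and 7.36 to 8.06. Of the 6 stellate cell and matrix markers, 3 were called higher under DDC (*Lum*, *Col1a1*, *Col3a1*). The summed levels of all 6, dominated by *Dcn*, were 13.4 to 13.7 against 12.5 to 12.7 in PBS liver. The part of these markers in the rise was not tested.

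Non-tumoral AKT-CAT liver differed from PBS liver for none of the 5 genes by limma, at the adjusted threshold or at an unadjusted p under 0.05, while 15.1% of all genes were called. *Sdcbp2* was 0.73 ± 0.39 higher (adjusted p = 0.205), *Tmem45b* 0.51 ± 0.38 higher and *Nat8* 0.24 ± 0.65 higher. *Nipal2* and *Foxr2* were undetected in both groups. The 2 groups lay on separate slides, linked only through AKT-CAT tumours, of which 1 lay on the slide of the non-tumoral livers. With slide as a fixed block 0 genes of the whole array were called, and the *Nat8* difference was -2.63 ± 1.18. The SE for *Sdcbp2* was 0.82 in that fit and 0.39 without the block, so 0 calls do not show that the groups were alike.

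DDC raised the same 4 genes in non-tumoral AKT-CAT liver, with 18.1% of all genes called. *Sdcbp2* rose by 5.95 ± 0.39 (adjusted p = 1.34e-12) and *Nipal2* at least 37.2-fold (adjusted p = 8.20e-18). *Tmem45b* rose by 3.98 ± 0.38 (adjusted p = 7.80e-09) and *Nat8* by 3.37 ± 0.65 (adjusted p = 0.000356). All 3 DDC arrays lay above all 3 untreated arrays for each. Of the untreated arrays, 1 was detected for *Sdcbp2* and 1 for *Tmem45b*, so the rises of both start near the floor. The groups lay on separate slides, linked only by untreated tumours, 3 on the slide of the DDC arrays and 1 on the other. With slide as a fixed block all 4 stayed called while the *Nat8* rise was 6.24 ± 0.97 (adjusted p = 0.000202). For *Nat8* that link rests on the 1 tumour, at 11.99, against a mean of 9.12 for the 3. *Foxr2* was undetected on these 6 arrays. In the same DDC-treated tissue *Vil1*, an epithelial brush-border gene, was detected on 2 of 3 arrays, *Cdh16* on none, and the hepatocyte markers summed to 16.3 to 16.4. Untreated tissue had neither *Vil1* nor *Cdh16* detected. Whether tumour cells were present in the tissue labelled non-tumoral was not tested.

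CCl4 raised 2 of the 4 genes other than *Foxr2* in non-tumoral AKT-CAT liver, with 19% of all genes called. *Nat8* rose by 3.99 ± 0.61 (adjusted p = 2.52e-05), against the 3.37 ± 0.65 with DDC, a difference that was not tested. *Nipal2* rose at least 1.79-fold (adjusted p = 9.56e-06), from undetected on 3 arrays to detected on 4. *Sdcbp2* differed by -0.06 ± 0.36 (adjusted p = 0.933) and *Tmem45b* by -0.20 ± 0.36 (adjusted p = 0.748), and their arrays overlapped. Each of these 2 genes was detected on 1 of 3 untreated and 1 of 4 CCl4 arrays, so a change below detection could not be seen. *Foxr2* was undetected in both groups. CCl4 and untreated arrays lay on different slides, so slide and agent cannot be told apart here.

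**Figure D2:**
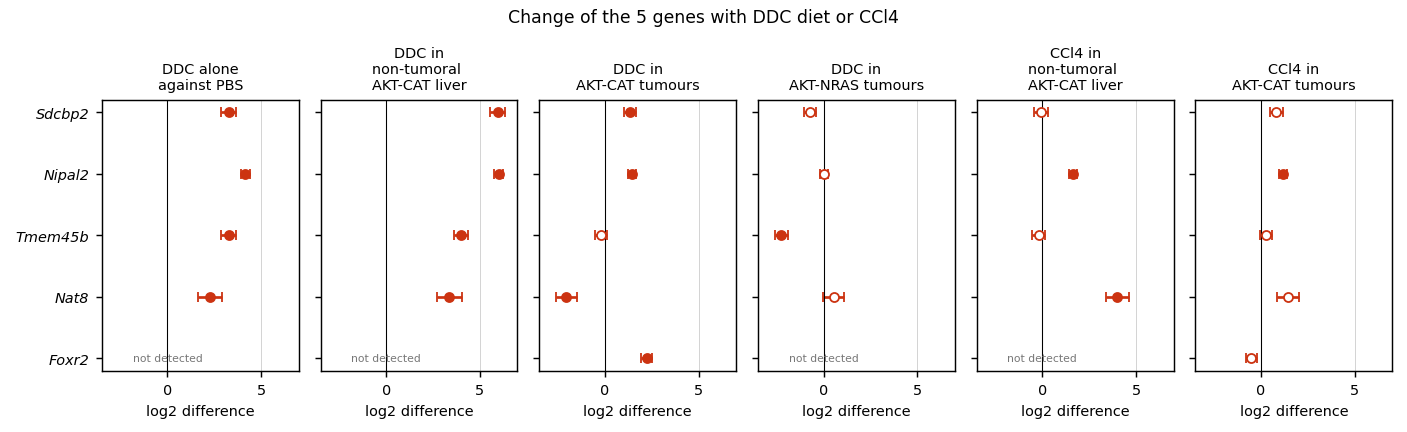
Log2 difference with its SE (x axis) for each gene (y axis) in the 6 comparisons that add DDC or CCl4. Filled points passed an adjusted p of 0.05 and open points did not; no point is drawn where neither group was detected. Points are fitted values; where 1 group had no detected array (such as *Nipal2* in untreated non-tumoral and PBS liver) only the bound in the text holds, and *Foxr2* points carry no test in the text. *Sdcbp2* under DDC in non-tumoral AKT-CAT liver is drawn at 5.95.

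In AKT-CAT tumours, DDC raised 2 of the 4 genes other than *Foxr2* and lowered 1, with 13.3% of all genes called. *Nipal2* rose by 1.42 ± 0.22 (adjusted p = 5.16e-05) and *Sdcbp2* by 1.34 ± 0.34 (adjusted p = 0.00852). *Nat8* fell by 2.06 on the log2 scale (SE 0.56, adjusted p = 0.0148), and *Tmem45b* differed by -0.22 ± 0.33 (adjusted p = 0.717). Arrays did not overlap for *Nipal2* and *Sdcbp2*. The fitted *Foxr2* difference was 2.23 ± 0.30, with 4 of 4 DDC tumours and 1 of 4 untreated tumours detected. The single detected untreated tumour, at 6.20, exceeded the lowest DDC tumour for *Foxr2*, at 5.89. The *Nat8* groups overlapped as well.

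The groups share 1 slide, with 2 DDC tumours and 3 untreated ones. Within it the differences were 2.20 for *Foxr2*, 1.61 for *Nipal2*, 1.46 for *Sdcbp2* and -1.34 for *Nat8*. With slide as a fixed block the adjusted p was 0.0634 for *Sdcbp2* and 0.245 for *Nat8*. The *Nat8* call was also lost without untreated tumour replicate 4 (-1.34, adjusted p = 0.100), without DDC tumour replicate 1 (-1.85, adjusted p = 0.0647) or 3 (-1.80, adjusted p = 0.0597), and when only the 2 groups were fitted (adjusted p = 0.126). Macrophage markers summed to 7.05 to 8.80 in DDC tumours and 9.82 to 10.9 in untreated tumours, and endothelial markers to 8.74 to 10.7 and 11.6 to 13.0. Of the macrophage markers 2 of 4 were undetected throughout both groups (*Cd5l*, *Ptprc*). Of the 7 hepatocyte markers 3 were called lower under DDC (*Alb*, *Apoh*, *Serpinc1*). The summed levels of all 7, dominated by *Ttr*, *Apoa1* and *Ahsg*, were 16.2 to 16.3 against 16.4 to 16.6, without overlap. The part of these markers in the differences was not tested.

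CCl4 in AKT-CAT tumours raised *Nipal2* alone, by 1.16 ± 0.22 (adjusted p = 0.000954), with 8.29% of all genes called. The adjusted p was 0.0824 when only the 2 groups were fitted. *Nat8* was 1.43 ± 0.56 higher (adjusted p = 0.109) and *Sdcbp2* 0.81 ± 0.34 higher (adjusted p = 0.131). Without untreated tumour replicate 4, the *Nat8* difference was 2.15 with an adjusted p of 0.0108. *Tmem45b* differed by 0.25 ± 0.33 and was not called. *Foxr2* was detected on 1 of the 8 arrays, an untreated tumour. The CCl4 and untreated tumours lay on separate slides, so slide and agent cannot be told apart.

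DDC in AKT-NRAS tumours lowered *Tmem45b* and changed no other member by the test, with 1.94% of all genes called. *Tmem45b* fell by 2.26 on the log2 scale (SE 0.33, adjusted p = 0.000114), and every DDC tumour lay below every untreated one on the same slide. *Sdcbp2* differed by -0.74 ± 0.34 (adjusted p = 0.338), *Nat8* by 0.54 ± 0.56 (adjusted p = 0.820) and *Nipal2* by 0.03 ± 0.22 (adjusted p = 0.994). *Foxr2* was undetected. The summed biliary markers were 10.1 to 11.0 without DDC and 11.3 to 11.7 with it, and the macrophage markers 9.16 to 10.3 and 8.22 to 8.77. Their part was not tested.

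The DDC effect differed between the tumour models for 3 of the 4 genes other than *Foxr2* by the interaction term, which called 3.43% of all genes. The effect in AKT-NRAS tumours minus that in AKT-CAT tumours was -2.07 ± 0.47 for *Sdcbp2* (adjusted p = 0.0125), -2.04 ± 0.47 for *Tmem45b* (adjusted p = 0.0134) and -1.39 ± 0.30 for *Nipal2* (adjusted p = 0.00911). The fitted *Foxr2* value was -2.20 ± 0.43, which rests on 8 AKT-NRAS arrays without detection and is no bound. *Nat8* went the other way, at 2.59 ± 0.80 (adjusted p = 0.0624). It passed the threshold with median scaling in place of quantile normalization (adjusted p = 0.0346), without untreated AKT-CAT tumour replicate 3 (3.32, adjusted p = 0.00588) or DDC tumour replicate 2 (2.80, adjusted p = 0.0475), and with a replicate block. Its adjusted p was 0.265 with slide as a fixed block. With slide as a fixed block the adjusted p was 0.0505 for *Sdcbp2* and 0.0646 for *Tmem45b*. With median scaling the *Foxr2* value was -1.29.

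Between the drivers, AKT-NRAS tumours differed from AKT-CAT tumours for *Sdcbp2* by -3.92 ± 0.34 on the log2 scale, that is 15.2-fold lower (adjusted p = 1.71e-10). They were also 3.28-fold lower for *Tmem45b* (adjusted p = 0.000133) and 3.196-fold higher for *Nipal2* (adjusted p = 3.40e-07), while 37.4% of all genes were called. *Nat8* differed by -0.23 ± 0.56 (adjusted p = 0.781). *Foxr2* was detected on 1 of these 8 arrays, an AKT-CAT tumour. For the 3 called genes the arrays of the models did not overlap.

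Under DDC 3 of the 4 genes other than *Foxr2* differed between the models, with 39.3% of all genes called. AKT-NRAS tumours were 63.7-fold lower for *Sdcbp2* (adjusted p = 9.22e-15) and 13.4-fold lower for *Tmem45b* (adjusted p = 1.56e-10). *Foxr2* was detected on 4 of 4 AKT-CAT and 0 of 4 AKT-NRAS tumours under DDC, a difference of at least 4.54-fold. *Nat8* was 5.14-fold higher in them (adjusted p = 0.00108), and *Nipal2* differed by 0.29 ± 0.22 (adjusted p = 0.318). The 2 models lay on separate slides, so slide and driver cannot be told apart. Of the 4 tested biliary markers, 2 were called higher in AKT-NRAS tumours, both without and with DDC. Group means without DDC were 9.08 against 5.86 for *Sox9* and 9.68 against 4.69 for *Cftr*. *Krt7* was 5.44 against 6.46 without DDC and 6.36 against 6.96 with it, and *Krt19* 5.28 against 5.66 and 5.99 against 5.03. Summed levels were 10.1 to 11.7 in AKT-NRAS and 6.87 to 10.4 in AKT-CAT tumours with or without DDC, with overlap. The part of these markers in the differences between the drivers was not tested.

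The 3 *Sdcbp2* probes gave effects of different sizes. The brightest probe was the one used above, and the others were detected on 20 and 13 arrays. The difference between AKT-NRAS tumours and PBS liver rested on the brightest probe, at 2.46 ± 0.36, while the middle one gave 0.41 ± 0.31 and the dimmest 0.22 ± 0.36. For DDC alone against PBS the brightest gave 3.27 ± 0.39 and the middle one 1.16 ± 0.33, both called, and the dimmest was undetected in both groups. For DDC in AKT-CAT tumours the 3 probes, from brightest to dimmest, gave 1.34 ± 0.33, 2.19 ± 0.29 and 1.69 ± 0.34, all called. The interaction of DDC with the driver was called by each probe as well, at -2.07 ± 0.47, -2.37 ± 0.40 and -1.79 ± 0.48. For CCl4 in AKT-CAT tumours the middle probe alone was called, at 1.31 ± 0.29 (adjusted p = 0.00374). The DDC rise in non-tumoral AKT-CAT liver was 5.95 ± 0.39, 3.45 ± 0.33 and 0.71 ± 0.39, the last not called (adjusted p = 0.216). In this liver under DDC the dimmest probe was detected on 1 of 3 arrays, with a mean of 5.07 against 7.76 in AKT-CAT tumours under DDC.

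**Figure D3:**
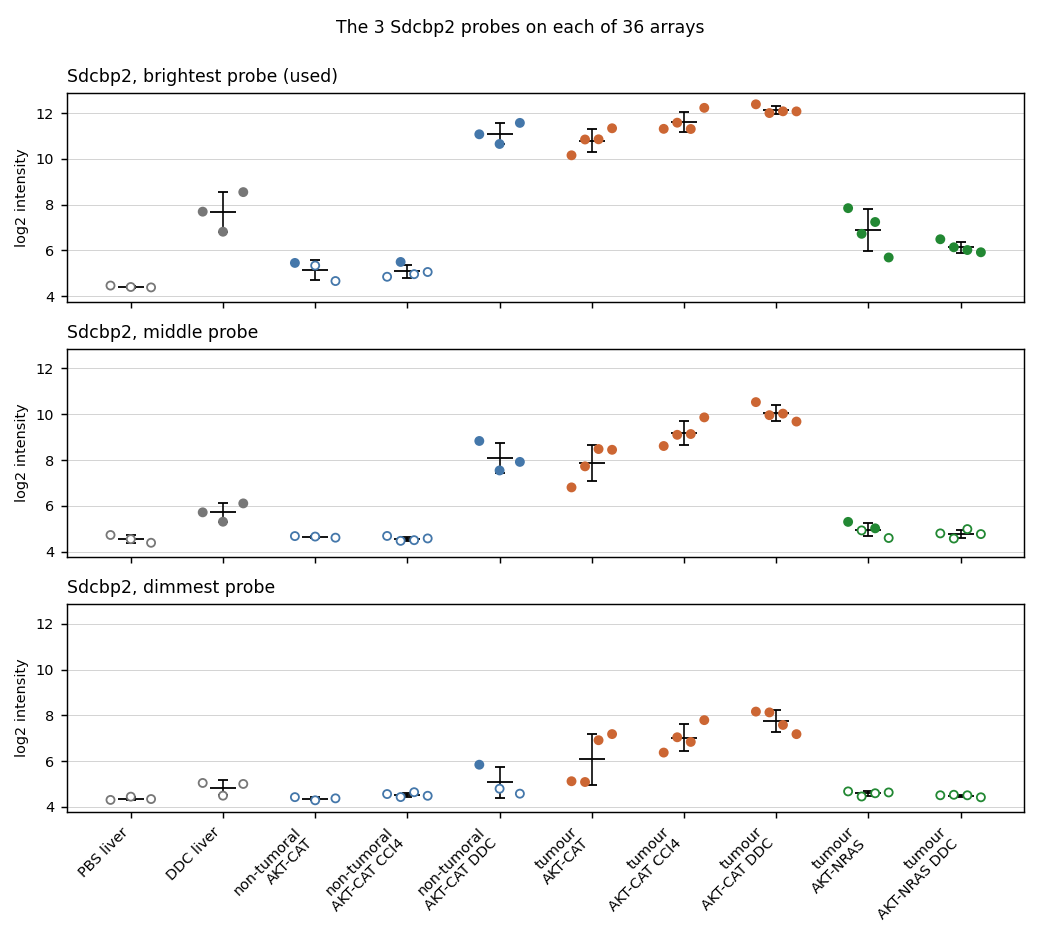
Normalized log2 intensity (y axis) of the 3 *Sdcbp2* probes on each of the 36 arrays, by group (x axis); filled points are detected, and bars are the group mean with SD. All 3 probes are detected on all 12 AKT-CAT tumour arrays, and the dimmest is undetected on all 8 AKT-NRAS tumour arrays.

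Genes related to the members by family or pathway were read from lists of 55 genes, of which 34 passed the filter and were tested. For DDC alone 6 were called higher and 5 lower, which is 32.4% against 22.7% of all genes. For DDC in non-tumoral AKT-CAT liver it was 3 and 5 (23.5% against 18.1%), and for CCl4 there 5 and 2 (20.6% against 19%). DDC in AKT-CAT tumours gave 2 and 6 (23.5% against 13.3%), CCl4 in AKT-CAT tumours 1 and 1 (5.88% against 8.29%), and DDC in AKT-NRAS tumours 0 and 4 (11.8% against 1.94%). The driver comparison gave 7 higher and 9 lower in AKT-NRAS tumours (47.1% against 37.4%), and 9 and 6 under DDC (44.1% against 39.3%). The genes counted as higher between the drivers include *Tmem45a*, which passed the filter through the AKT-NRAS tumours alone and so was favoured by it. The median difference over all 34 genes stayed within 0.17 of 0 on the log2 scale in all 15 comparisons, as did the medians of all genes, but single lists moved further. The median of the 3 tested *Nat8* family genes was -1.63 between the drivers and -2.98 under DDC, and that of the syntenin partners was 0.51 and 0.49.

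In the comparisons that chose the members, untreated AKT-CAT tumours had 1 related gene higher and 6 lower than non-tumoral liver, where 11.2% of all genes were called. Without untreated tumour replicate 3 the total of 7 became 4. Under CCl4 it was 2 higher and 5 lower, with 15.2% of all genes called. Under DDC it was 2 and 2, with 5.77% called, and leaving out 1 array gave totals from 0 (without DDC tumour replicate 1 or non-tumoral replicate 3) over 1 (without DDC tumour replicate 2 or non-tumoral replicate 2) to 7 (without DDC tumour replicate 4). Against PBS liver, AKT-NRAS tumours had 8 higher and 12 lower, with 50% of all genes called. Against DDC-only liver, the DDC-treated AKT-NRAS tumours had 5 higher and 6 lower, with 37.4% called. The higher genes of both AKT-NRAS comparisons include *Tmem45a*, which passed the filter through those tumours alone.

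Among the syntenin and syndecan partners, 7 of 7 were tested. *Cd63*, a tetraspanin of exosomes, rose by 4.04 ± 0.33 with DDC alone, by 2.11 ± 0.33 with DDC in non-tumoral AKT-CAT liver and by 0.93 ± 0.28 with DDC in AKT-CAT tumours. It was also 2.23 ± 0.31 higher in untreated AKT-CAT tumours than in non-tumoral liver. *Sdcbp*, which encodes syntenin-1, rose by 1.25 ± 0.20 with DDC alone, and was higher in AKT-NRAS than in AKT-CAT tumours by 1.06 ± 0.17, where *Sdcbp2* was lower. *Sdc3*, a cell-surface proteoglycan of the syndecan family, fell by 1.19 on the log2 scale with DDC in AKT-NRAS tumours (SE 0.32), and its group means were 8.77 in those tumours and 10.84 in DDC-only liver.

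Of the NIPA family and other magnesium transport genes, 8 of 16 were tested. *Slc41a2*, a magnesium transporter, was higher with DDC alone (1.54 ± 0.46) and in non-tumoral AKT-CAT liver against PBS (2.995 ± 0.46), where *Nipal2* was undetected. Non-tumoral and PBS liver lay on separate slides, and with slide as a fixed block 0 genes were called between them. That fit links their slides through few tumour arrays and has little power. *Nipa1*, a magnesium transporter of the same family as *Nipal2*, rose by 1.07 ± 0.22 with DDC alone. *Cnnm2*, a magnesium-handling membrane protein, was lower in AKT-NRAS than in AKT-CAT tumours (-0.96 ± 0.16), where *Nipal2* was higher.

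*Tmem45a* is the paralogue of *Tmem45b* tested here, and it separated the drivers the opposite way. It was detected on all 8 AKT-NRAS tumours and on no other array, and so passed the filter through those groups alone. Group means were 7.66 and 8.19 in the AKT-NRAS groups and 4.50 to 4.87 in all others. The level in AKT-NRAS tumours was at least 5.85-fold that in AKT-CAT tumours, and at least 8.43-fold under DDC, given without a test. With DDC in AKT-NRAS tumours it differed by 0.53 ± 0.16 (adjusted p = 0.0928), where *Tmem45b* fell.

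The *Nat8* family did not move as one. *Nat8f1*, a relative from the same gene cluster, fell by 1.60 on the log2 scale with DDC alone (SE 0.23, adjusted p = 3.67e-06) and by 1.37 in non-tumoral AKT-CAT liver (SE 0.23, adjusted p = 4.76e-05), where *Nat8* rose. With DDC in AKT-CAT tumours both fell, *Nat8f1* by 0.68 on the log2 scale, and with CCl4 in non-tumoral liver both rose, *Nat8f1* by 0.96 ± 0.21. *Nat8f2* and *Nat8f4* were lower in AKT-NRAS tumours under DDC than in AKT-CAT tumours under DDC, at -2.99 ± 0.26 and -2.98 ± 0.27, where *Nat8* was higher. These genes have similar sequences, and whether a probe reads more than 1 of them was not tested, since probe sequences were not used here.

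In the mercapturate and glutathione pathway, 9 of 13 genes were tested. *Acy1*, an aminoacylase that removes acetyl groups, fell with DDC alone (-1.14 ± 0.27), in non-tumoral AKT-CAT liver (-0.99 ± 0.27) and in AKT-CAT tumours (-0.91 ± 0.23). *Anpep* encodes an aminopeptidase that cleaves the cysteinylglycine left from glutathione conjugates. It was lower in non-tumoral AKT-CAT than in PBS liver (-2.19 ± 0.60), which lay on separate slides. It was higher with DDC (1.81 ± 0.60) and with CCl4 (2.14 ± 0.56) in non-tumoral AKT-CAT liver, where *Nat8* rose, and with DDC in AKT-CAT tumours (2.11 ± 0.52), where *Nat8* fell. *Gclc*, the catalytic subunit of the rate-limiting enzyme of glutathione synthesis, rose with CCl4 in non-tumoral liver by 1.78 ± 0.25, as *Nat8* did. *Gclc* fell with DDC in AKT-CAT tumours (-1.15 ± 0.23), the comparison in which *Nat8* fell.

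Of the FOXR family and MYC partners, 6 of 9 were tested. *Mxi1*, a MYC antagonist that pairs with MAX, rose with CCl4 in non-tumoral liver by 2.14 ± 0.33. *Mycl*, a MYC family member, was lower in AKT-NRAS than in AKT-CAT tumours (-1.47 ± 0.44). *Mlx*, a MAX-like protein that pairs with MondoA and ChREBP, fell by 0.79 on the log2 scale with DDC alone (SE 0.23) and was 0.74 ± 0.20 higher in AKT-NRAS than in AKT-CAT tumours under DDC.

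**Figure D4:**
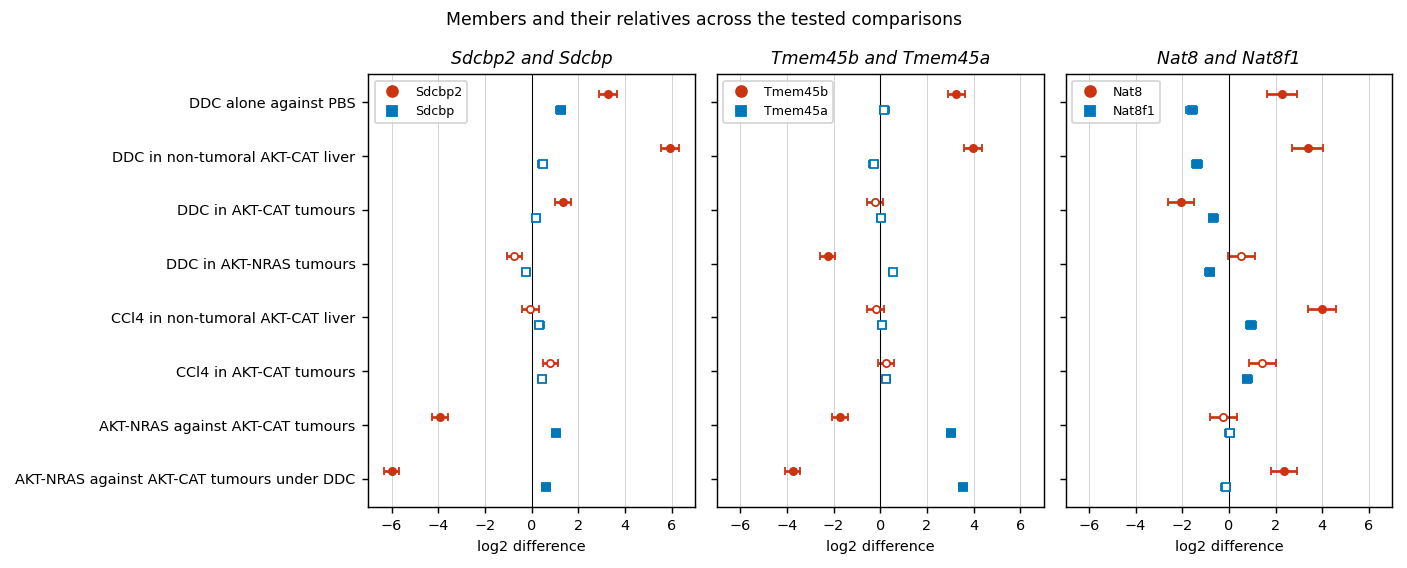
Log2 difference with its SE (x axis) for a member (circles) and a relative (squares) in 8 tested comparisons (y axis); filled symbols passed an adjusted p of 0.05. Points are fitted values, and those of *Tmem45a* against AKT-CAT tumours, where it was undetected, are no bound and carry no test in the text. *Tmem45b* and *Tmem45a* lie on opposite sides of 0 between the drivers, as do *Nat8* and *Nat8f1* for DDC alone and in non-tumoral liver.

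The genes most like each member were ranked by the Pearson correlation of log2 levels over the 36 arrays, which share 10 groups and 5 slides, so that the values are descriptions. For *Sdcbp2* they were *Ang4*, a ribonuclease of the angiogenin family known from mouse Paneth cells (0.97), *Cidec*, a lipid-droplet protein (0.94), and *Endod1* (0.92). For *Tmem45b* they were *Exoc3l4* (0.91), *Ang4* again (0.90) and *Gipc2*, a PDZ protein (0.90). *Nipal2* went with *Tax1bp3*, a small PDZ protein, *S100a11*, a calcium-binding protein, and *Fermt1*, the adhesion protein kindlin-1 (0.97 each). The values over the 10 group means were 0.92 to 0.99 for these 9 pairs.

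For *Nat8* the most like were *Ifi27l2b* (0.86), *Idh2*, the mitochondrial isocitrate dehydrogenase (0.82), and *Enoph1*, an enzyme of methionine salvage (0.81). *Foxr2* was followed by *Nkx2-2*, a homeobox transcription factor (0.90), *Phospho1*, a phosphatase of bone mineralisation (0.87), and *Cdh16*, the kidney cadherin (0.76). *Nkx2-2* was detected on 3 arrays and *Cdh16* on 7, so these values rest on few arrays. *Cdh16* was detected on 4 of 4 AKT-CAT tumours under DDC and 3 of 4 untreated ones and on no other array. Of the other kidney and gut markers on the array, *Vil1* was detected on all 8 untreated and DDC-treated AKT-CAT tumours, 3 of 4 CCl4 tumours, all 8 AKT-NRAS tumours and 2 of 3 non-tumoral livers under DDC, and *Umod*, *Slc34a1* and *Fabp2* on no array.

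Between 10688 and 13101 probes were detected per array (41.6% to 51.0%), and precision is limited by how many arrays a group has. Before normalization the median signal per array ran from 7.35 to 46.2. The hepatocyte markers summed to 15.9 to 16.7 on every array. Of the drivers, *Akt1* was detected on 5 of 36 arrays, and *Ctnnb1* and *Nras* on all. *Nras* was higher in AKT-NRAS than in AKT-CAT tumours, by 0.53 ± 0.15 without DDC (adjusted p = 0.00516) and 0.70 ± 0.15 with it (adjusted p = 0.000307). *Ctnnb1* was not higher in AKT-CAT tumours, but 0.82 ± 0.17 and 1.31 ± 0.17 higher in AKT-NRAS tumours (adjusted p = 0.000269 and 1.97e-07). The probe positions in the driver transcripts were not used here.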

How the data were processed

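Probe intensities from biotin-labelled cRNA, deposited by the authors, were not normalized. The labels name GenomeStudio (version not stated). Of these intensities 24.8% to 30.2% per array were below 0. The detection p-value of each probe was deposited by the authors beside them, and was tied to its array by rank order (0 steps out of order). The slide of an array is an inference from the header prefix of the detection p-values tied to it.

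Of 25697 probes, 23978 named 1 gene. Background correction and quantile normalization used neqc (limma 3.58.1, R 4.3.3, offset 16). Probes detected at p under 0.05 on at least 3 arrays were kept, and the probe with the highest mean stood for a gene (10765 genes). One limma fit over the 36 arrays had a term per group (10) and no other, and 10 contrasts were tested for the members and 5 described. Bounds raise undetected values to the array's lowest detected intensity. Figures used Python 3.11.15 with matplotlib 3.10.9.

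The members, lists and tests were chosen with earlier results of these data known. Named genes were the 5 members, their 3 most similar genes, and up to 3 called genes of each related list with the largest change over the 15 comparisons. Alternatives covered scaling, the series matrix intensities (deposited by the authors, method not stated), filter, offset, probe choice, slide (5 slides), replicate block, samples, variance prior and single arrays left out. The fit was tested on simulated data.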

Additional observations from a re-analysis of the deposited data

Results flagged for a closer look

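In AKT-NRAS tumours without DDC, *Nat8* read 10.23 on 1 array and 9.33, 9.40 and 9.45 on the others, so that this array stood apart after normalization. Before normalization its *Nat8* intensity, 916, was the lowest of the group. The array was also the dimmest, with a median signal of 11.7 against 27.7 to 46.2 on the others. The part of normalization in this was not tested. In untreated AKT-CAT tumours, *Foxr2* read 6.20 on 1 array, the only detected one, and 4.44, 4.58 and 4.70 on the others. Chance sets apart about 1 in 20 such sets, and 26 sets of 4 arrays were examined. The effect of DDC differed between AKT-NRAS and AKT-CAT tumours by the interaction term for *Sdcbp2* (-2.07), *Nipal2* (-1.39) and *Tmem45b* (-2.04). Each value is the log2 effect in AKT-NRAS minus that in AKT-CAT tumours. *Foxr2* had a fitted value of -2.20, but it was undetected on every AKT-NRAS array. It passed the filter on dim probes through the AKT-CAT tumours under DDC, so its value is given without a test.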

How the results depend on the processing

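Of the members called (*Foxr2* counted), those for CCl4 in AKT-CAT tumours numbered 1, and 2 with the mean of a gene's probes, 0 with only the compared groups, and 1 to 2 with 1 array left out. With slide as a fixed block, the count fell from 4 to 2 for DDC in AKT-CAT tumours and from 4 to 2 for the difference of the DDC effect between models. In both, the 2 left were *Nipal2* and *Foxr2*. Since *Foxr2* was favoured by the filter and carries no test, *Nipal2* alone remained. Of the related genes called, those for tumours against non-tumoral liver under CCl4 numbered 7, and 12 with median scaling and 4 with only the compared groups. Under DDC the 4 became 1 with no filter on dim probes, 0 with slide as a fixed block, and 0 to 7 with 1 array left out. Without an agent the 7 became 0 with only the compared groups, 1 with slide as a fixed block, and 4 to 7 with 1 array left out. Some differences that were small in the main fit changed sign under another setting, and the cause was not tested. They were Foxr2, untreated AKT-CAT tumours against non-tumoral liver (-0.14 with median scaling, -0.090 with slide as a fixed block), Nat8, non-tumoral AKT-CAT liver against PBS liver (-2.63 with slide as a fixed block, -0.23 to 0.70 with 1 array left out), and Nat8, AKT-NRAS against AKT-CAT tumours (-0.96 to 0.48 with 1 array left out). The others were Nipal2, DDC in AKT-NRAS tumours (-0.067 to 0.12 with 1 array left out), Sdcbp2, CCl4 in non-tumoral AKT-CAT liver (0.0052 with the mean of its probes, -0.31 to 0.090 with 1 array left out), and Tmem45b, CCl4 in non-tumoral AKT-CAT liver (-0.51 to 0.023 with 1 array left out).

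Median scaling moved the median of all genes by comparison to between -0.52 and 0.18 on the log2 scale. Genes called over the whole array for the difference of the DDC effect numbered 369, and 1447 with median scaling and 80 with slide as a fixed block. Replicate numbers did not pair the samples, since correlations of same-numbered arrays ran from -0.29 to 0.35 and no comparison had all of them over 0.1. With a replicate block, Nat8, DDC effect in AKT-NRAS minus in AKT-CAT tumours was 2.59 with an adjusted p of 0.0442, and the block changed no other call of a member. Arrays without detection give only bounds for Foxr2, for Sdcbp2, Nipal2 and Tmem45b in PBS liver, and for Nipal2 in untreated non-tumoral AKT-CAT liver. Sdcbp2 and Tmem45b were each detected on 1 of 3 untreated and 1 of 4 CCl4-treated non-tumoral livers. Their differences from these groups thus rest largely on undetected values.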
